A study of Mus musculus with 4 samples.

Results

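Solute carriers are membrane proteins that move small molecules and ions across the plasma membrane, the lysosome, the Golgi apparatus and the inner mitochondrial membrane, and they are numbered by family, so that the family number usually points to the substrate. In macrophages they supply amino acids, sugars, lipids, vitamins and metal ions, return products of digested material from the lysosome to the cytosol, and exchange metabolites with the mitochondrion. Some work alone, and others need a partner, such as the light chains of the Slc7 family that are held at the cell surface by the heavy chain Slc3a2.

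The genes described here are the protein-coding mouse genes with a symbol of the form Slc, a number, the letter a and a number that had at least 200 counts summed over 4 RNA-seq libraries. Slc2a1, Slc16a3, Slc7a11, Slc11a1 and Slc40a1 were set aside by the rule. Of 54146 genes in the count table, 342 were protein-coding Slc genes, 166 of these reached 200 counts, and 161 remained. The genes were thus chosen by their summed count, the only measured value in the rule, and all 161 genes also passed the filter on low counts of the statistical test. Just inside the limit were Slc26a10 with 202 counts, Slc4a3 with 212 and Slc9a3r2 with 213, and just outside it were Slc16a11 with 192, Slc24a3 with 176 and Slc4a5 with 172. A further 41 Slc genes had no count in any library. Only 1 gene had under 100 counts over the control libraries and 3 had under 100 over the propranolol libraries. The pattern of the symbol also took in Slc4a1ap, Slc7a6os, Slc9a3r1 and Slc9a3r2, which are named after a carrier without being one. They were counted among the 161 genes and, once their names had been seen, kept apart from the 19 substrate classes into which the remaining 157 genes of 42 families were sorted.

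The libraries were made from tumor associated macrophages (TAMs) of female mice, 8 to 16 weeks old, that carried subcutaneous tumors of MCA205, a transplanted mouse fibrosarcoma line, after injection of the cells into the flank. One group drank water containing propranolol hydrochloride, a blocker of beta-adrenergic receptors, at 0.5 g/L from the day of inoculation, and the control group received vehicle. CD45+ cells were enriched on magnetic beads, and live CD11b+ F4/80+ cells were then sorted for poly(A) RNA-seq. Each group had 2 libraries, which held 13798249 and 23018142 counts for control replicates 1 and 2 and 39818103 and 16424081 counts for propranolol replicates 1 and 2. With 2 libraries against 2, an exact permutation test of a single value cannot go below p = 0.333, so that calls rest on a model fitted across all genes.

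The macrophage label of the sort was checked against its defining markers, in CPM, which are counts scaled to the size of the library. The 10 macrophage markers, with Apoe the most abundant, summed to 27266 and 25518 CPM in the control libraries and 33862 and 33380 CPM in the propranolol libraries. Markers of other cells were present at lower levels and differed between the groups. Of the 8 tested neutrophil markers 7 rose (S100a8, S100a9, Cxcr2, Retnlg, Mmp9, Hdc and Lcn2), with log2 fold changes from 0.79 to 2.33. The most abundant, Csf3r, had 0.56 and was not called. The list summed to 195, 215, 428 and 478 CPM in the same order of libraries. The neutrophil genes Ly6g, between 0 and 0.524 CPM, and Camp, between 0 and 0.239 CPM, were too low to be tested. T cell markers summed to 289, 325, 153 and 89.8 CPM, led by Cd8a, and 8 of 10 fell. NK cell markers summed to 268, 277, 115 and 59.3 CPM, led by Gzmb, and 9 of 9 fell. Of the 7 monocyte markers, led by Fn1, 3 rose, and the list summed to 2923, 2610, 4856 and 4194 CPM. Most of that sum was Fn1, with 2284, 2062, 4265 and 3700 CPM. The next most abundant, Ccr2, went the other way with 454, 397, 306 and 262 CPM. Its log2 fold change of -0.58 was short of 1.5-fold. Control replicate 1 stood apart in the fibroblast or tumor cell markers, which summed to 2885, 1134, 667 and 704 CPM, were led by Col3a1 and fell in 8 of 10 cases. B cell markers, led by Ighm, summed to 159, 183, 184 and 196 CPM, with 1 higher and 1 lower of 3 tested, and Cd79a stayed at or under 1.38 CPM. Of the dendritic cell markers, led by Batf3, 3 of 8 fell, with sums of 58.7, 62.3, 50.7 and 39.2 CPM. Endothelial markers, led by Pecam1, summed to 50.4, 47.8, 63.0 and 61.5 CPM with 1 higher of 5 tested, and erythroid markers, led by Hbb-bs, to 50.2, 30.5, 52.4 and 46.6 CPM with none changed of 3 tested by edgeR. The part of these cells in the differences between solute carrier genes was not tested. In sorted bulk RNA, fewer cells of a type and less RNA per cell cannot be told apart.

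**Figure D1:**
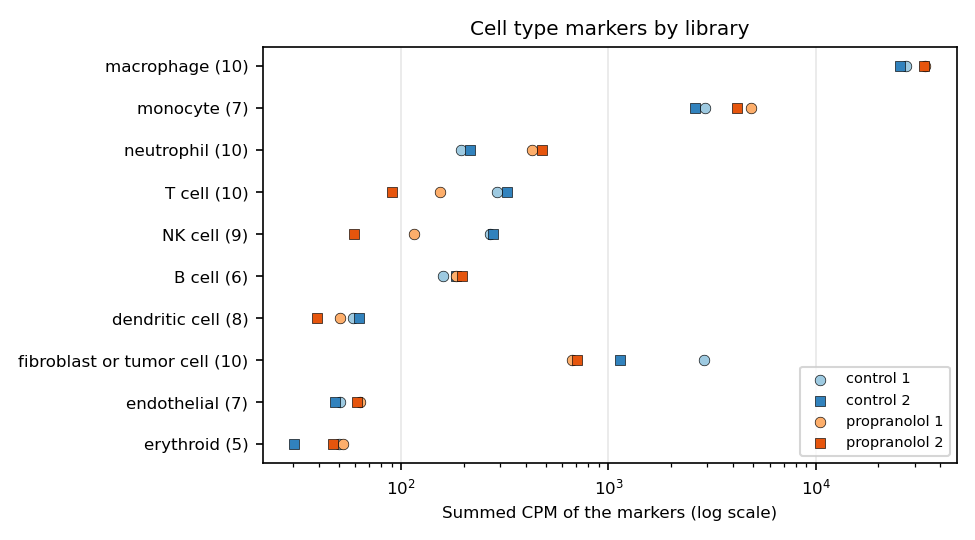
Summed CPM (log axis) of the markers of 10 cell types in each of the 4 libraries, with the number of markers in parentheses; circles and squares are replicates 1 and 2, blue is control and orange is propranolol. Macrophage markers were the most abundant list in every library, and control replicate 1 lay apart in the fibroblast or tumor cell list at 2885 CPM.

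Levels are compared between genes in TPM, a measure of transcript abundance that divides by the exon length of the gene. Solute carrier genes took 1.01%, 1.04%, 1.10% and 1.14% of all counts in control replicates 1 and 2 and propranolol replicates 1 and 2. Mean TPM over the 4 libraries ran from 0.826 to 797 with a median of 18.9, 17 genes were above 100 TPM and 23 were below 5 TPM. The 10 most abundant genes held 39.6% to 42.6% of the summed TPM of the 161.

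The most abundant was Slc25a5, the carrier that exchanges ADP for ATP across the inner mitochondrial membrane, at 742 and 761 TPM in control and 869 and 816 TPM in propranolol libraries. Its range lay above that of every other solute carrier gene. Next came Slc15a3, a lysosomal carrier of histidine and small peptides, with 258, 297, 420 and 427 TPM, and Slc3a2, the heavy chain partner of the Slc7 amino acid carriers, with 281, 295, 352 and 360 TPM. Those ranges overlapped each other, and that of Slc3a2 lay above the gene after it in the order. From rank 4 to rank 20 each gene overlapped its neighbour in range. This stretch opened with the mitochondrial phosphate carrier Slc25a3 at a mean of 243 TPM, the taurine carrier Slc6a6 at 227 TPM and the amino acid light chain Slc7a8 at 227 TPM. It went on with the zinc importer Slc39a1 at 207 TPM, the oxoglutarate carrier Slc25a11 at 203 TPM, the scaffold protein gene Slc9a3r1 at 184 TPM and the ADP/ATP carrier Slc25a4 at 181 TPM. The mitochondrial glutathione carrier Slc25a39 followed at 146 TPM, the amino acid carrier family member Slc38a10 at 130 TPM, the lysosomal nucleoside carrier Slc29a3 at 117 TPM, Slc35a4 at 113 TPM and the neutral amino acid carrier Slc43a2 at 111 TPM. Among the classes, mitochondrial carriers had the highest summed level, 2197, 2230, 2445 and 2385 TPM, followed by amino acid carriers with 1465, 1529, 1661 and 1777 TPM.

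**Figure D2:**
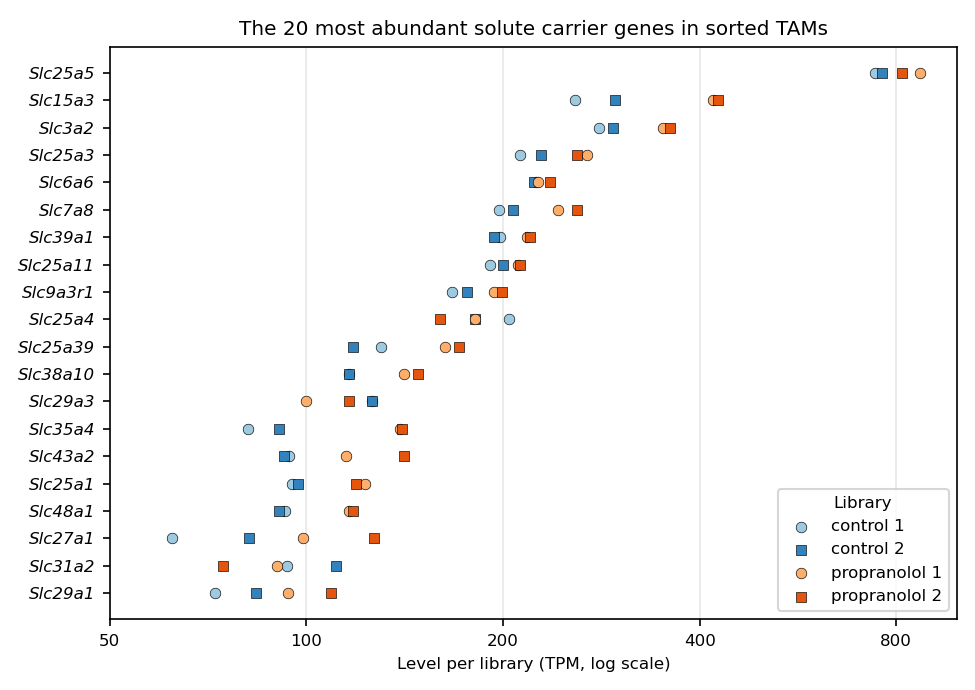
Level in TPM (log axis) of the 20 most abundant solute carrier genes, 1 point per library, in order of mean TPM from top to bottom; circles and squares are replicates 1 and 2, blue is control and orange is propranolol. Slc25a5 lay between 742 and 869 TPM, apart from all others, and from Slc25a3 downwards the ranges of neighbours overlapped.

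To compare TAMs from propranolol treated and control mice, counts of all 14688 genes that passed the filter were fitted with the quasi-likelihood test of edgeR, and a gene was called changed at a Benjamini-Hochberg adjusted p under 0.05 over all of them and a fold change above 1.5. Of the 161 solute carrier genes, 45 (28.0%) changed, against 27.8% of all tested genes. By direction, 31 (19.3%) rose against a background of 12.2%, and 14 (8.70%) fell against a background of 15.6%. With upper-quartile scaling 38 changed, 22 higher and 16 lower, while 26.9% of all tested genes changed. The background by direction is not given for that scaling, so its counts by direction cannot be set against one. Under it 9 genes lost their call, among them Slc2a6, Slc4a2, Slc9a8, Slc25a25, Slc29a1, Slc46a1, Slc48a1 and Slc52a2, and 2 gained one (Slc30a1 and Slc41a2, both lower). The median log2 fold change was 0.20 over the solute carrier genes and -0.02 over all tested genes. Changes were small, with 40 of the 45 genes under 2-fold, and 7 genes (Slc4a7, Slc12a4, Slc15a3, Slc25a10, Slc25a40, Slc35a3 and Slc35a4) passed when the test itself was set against a 1.5-fold change. Without the limit on fold, 90 genes (55.9%) had an adjusted p under 0.05, 64 higher and 26 lower, against a background of 42.2% (21.8% higher and 20.4% lower). CPM of the groups did not overlap in 121 of 161 genes (75.2%), against 72.6% of all tested genes. The propranolol libraries were above in 81 (50.3%, background 35.8%) and below in 40 (24.8%, background 36.9%), and none of the 45 changed genes had overlapping groups.

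**Figure D3:**
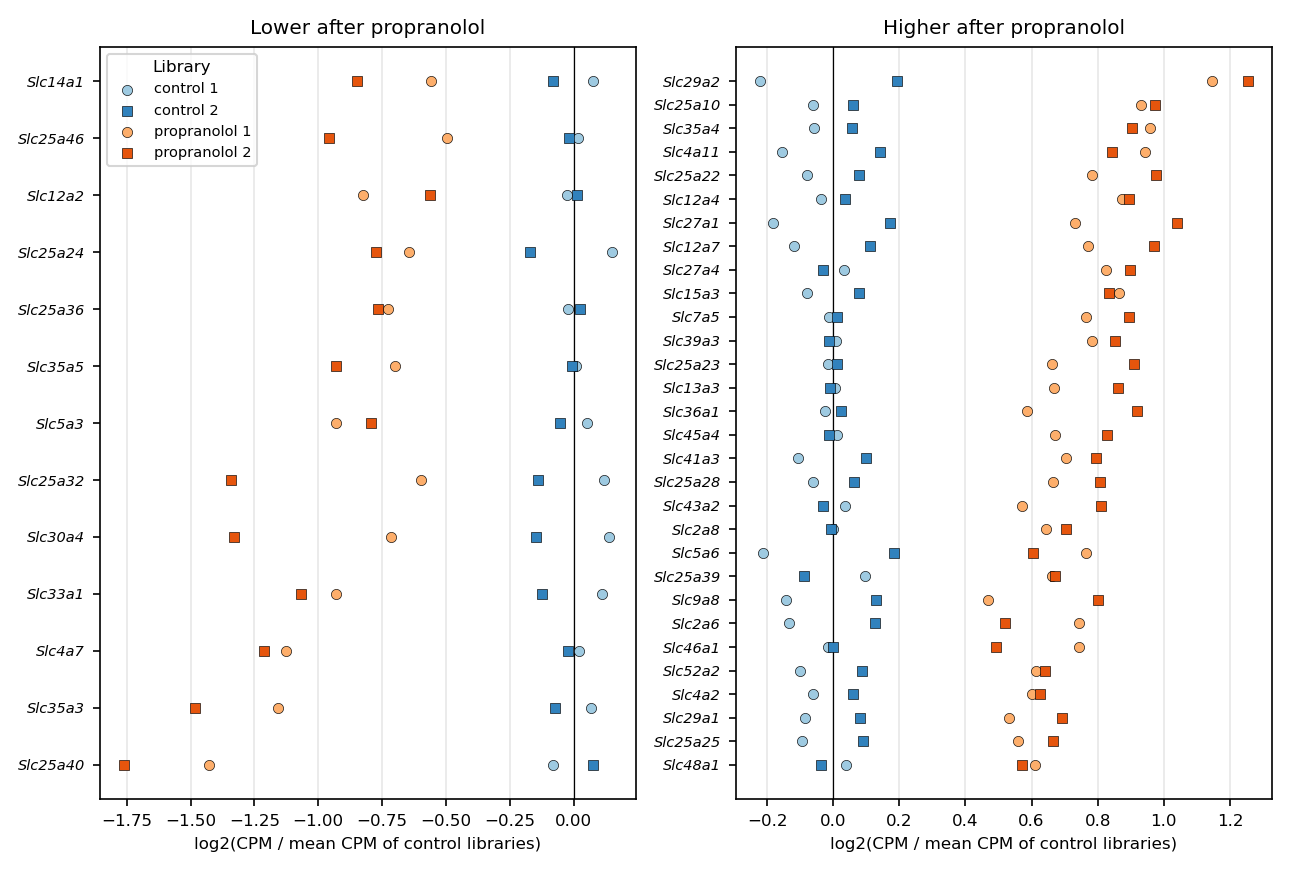
Changed genes in each library, as log2 of CPM over the mean CPM of the control libraries; circles and squares are replicates 1 and 2, blue is control and orange is propranolol. Of the 14 genes that fell, 13 are on the left, and of the 31 that rose, 30 are on the right, and in each gene shown both propranolol libraries lay on the same side of both control libraries.

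Direction followed the base composition of the transcripts. Genes that rose had a median GC content of 56.3% and none was under 49.0%, whereas genes that fell had a median of 41.4% and 13 of 14 were at or under 46.1%. Among the 3670 tested genes of lowest GC content, 0 of 32 solute carrier genes rose and 12 (37.5%) fell, beside 0.736% and 43.0% of those tested genes. Among the 3671 of highest GC content, 23 of 51 rose (45.1%) and 0 fell, beside 30.1% and 3.95% of those tested genes. Across genes, which are not independent replicates, the Spearman correlation of log2 fold change with GC content was 0.695 over the 161 genes and 0.577 over all tested genes, all points sharing the same 4 libraries. A second fit removed this trend from each library with a spline of gene GC content entered as offsets. It called 13 solute carrier genes (8.07%), against a background of 12.6%, with 11 higher (6.83% against 7.64%) and 2 lower (1.24% against 4.99%). Only 6 calls were shared by both fits. Among them, Slc25a10, Slc25a25, Slc12a7, Slc35a4 and Slc29a2 rose in both. The median of the solute carrier genes was then 0.18, beside 0.09 over all tested genes. Whether the trend arose in the cells or in the preparation of the libraries was not tested, and values after removal of the trend are given below for most of the changed genes named. Over the 161 genes the sign of the log2 fold change turned with the correction in 38, from below 0 to above 0 in 29. The share turned over all tested genes is not given, so the count is not a trait of solute carriers. In the 735 tested genes of lowest GC content the median moved from -1.17 to -0.03.

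**Figure D4:**
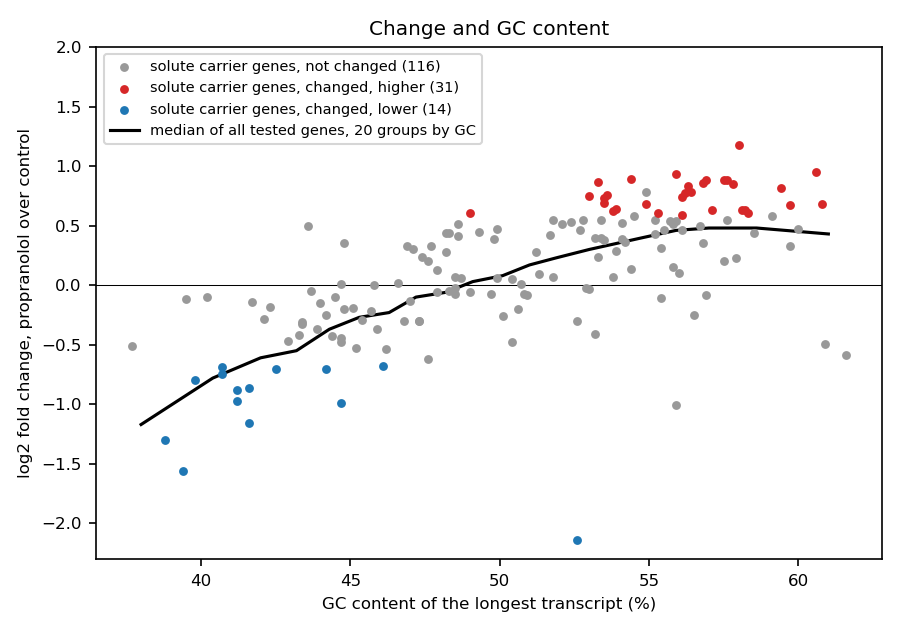
Log2 fold change of propranolol over control (y axis) against GC content of the longest transcript in percent (x axis) for the 161 solute carrier genes; red rose, blue fell, grey did not pass the thresholds, and the black line joins the medians of all tested genes in 20 groups by GC content. The risen genes lay at 49.0% GC or above, and 13 of the 14 fallen genes at 46.1% or below.

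Amino acid carriers formed the second largest class, with 23 genes, of which 3 rose, none fell, and 11 were higher and 3 lower by adjusted p alone; the class median was 0.30, and 0.20 after removal of the GC trend, where no call remained. Slc7a5, the light chain of the large neutral amino acid exchanger LAT1 (chr8:121881150-121907694 on GRCm38, as all coordinates here), measured 61.3 and 62.3 CPM in control and 105 and 115 CPM in propranolol libraries. Both propranolol libraries were above both controls, with a log2 fold change of 0.83 ± 0.11 (SE, n = 2 against 2, edgeR adjusted p = 0.000316) and 0.50 after removal of the GC trend. Slc36a1, which exports amino acids from the lysosome together with protons, measured 68.1, 70.5, 104 and 131 CPM, a log2 fold change of 0.76 ± 0.13 (edgeR adjusted p = 0.00114) and 0.52 after removal of the trend. Slc43a2 measured 289, 276, 419 and 494 CPM and rose by 0.69 ± 0.11 on the log2 scale (edgeR adjusted p = 0.000773), with 0.46 after removal of the trend. The partner chain Slc3a2 and the light chain Slc7a8 each had a log2 fold change of 0.55, past the adjusted p but short of 1.5-fold. Together the light chains Slc7a5 to Slc7a8 summed to 336 and 351 TPM in control and 422 and 448 TPM in propranolol libraries, beside 281, 295, 352 and 360 TPM for Slc3a2. The glutamine carrier Slc1a5 had a log2 fold change of 0.50, Slc38a1 of -0.07 and Slc38a2 of 0.01, and the arginine carrier Slc7a2 of -0.37, none past both thresholds. With the GC trend removed these 4 stood at 0.17, 0.05, 0.42 and 0.09, again none called, Slc38a2 passing the adjusted p alone (edgeR adjusted p = 0.0246).

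In the peptide class, Slc15a3 (chr19:10839727-10859362) measured 434 and 484 CPM in control and 836 and 818 CPM in propranolol libraries. This highly expressed lysosomal carrier rose by 0.85 ± 0.10 on the log2 scale (SE, n = 2 against 2, edgeR adjusted p = 0.000191), and by 0.51 after removal of the GC trend, short of 1.5-fold. Its exons share 28.1% of their bases with other annotated genes, and the counting settings named by the study's methods hold no strand option, so that reads of overlapping genes may not be told apart. The second member, Slc15a4, had a log2 fold change of 0.55 and was not called.

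Mitochondrial carriers of the Slc25 family were the largest class, with 36 genes, 6 higher and 5 lower, and a median of 0.07. After removal of the GC trend 4 were called higher and none lower, with a median of 0.14. Slc25a10, which exchanges dicarboxylates such as malate and succinate for phosphate (chr11:120491840-120499187), measured 64.4, 70.0, 128 and 132 CPM. It rose by 0.95 ± 0.10 on the log2 scale (edgeR adjusted p = 0.000167) and stayed called after removal of the GC trend at 0.64 (edgeR adjusted p = 0.00220). The glutamate carrier Slc25a22 measured 49.0, 54.7, 89.1 and 102 CPM and rose by 0.88 ± 0.12 (edgeR adjusted p = 0.000399), with 0.54 and no call after removal of the trend. Close relatives moved in opposite directions. Slc25a39 measured 110, 96.8, 163 and 164 CPM and rose by 0.67 ± 0.10 (edgeR adjusted p = 0.000838), while its relative Slc25a40 measured 7.75, 8.65, 3.05 and 2.42 CPM and fell by 1.56 ± 0.27 on the log2 scale (edgeR adjusted p = 0.00147). The GC content of the pair was 59.7% and 39.4%, and after removal of the trend their log2 fold changes were 0.34 and -0.64, neither called. Among the calcium-regulated carriers of ATP-Mg and phosphate, Slc25a23 and Slc25a25 rose, with log2 fold changes of 0.78 and 0.61, and Slc25a24 fell, with -0.70. In this trio Slc25a25 kept its call after removal of the trend, at 0.68, while Slc25a23 and Slc25a24 lost theirs, at 0.46 and -0.10. Slc25a24 and Slc25a25 lost their calls without control replicate 1, at -0.48 and 0.58, and Slc25a23 without propranolol replicate 2, at 0.69.

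Also lower among mitochondrial carriers were the folate and flavin carrier Slc25a32 at -0.88, the pyrimidine nucleotide carrier Slc25a36 at -0.75 and Slc25a46 at -0.69, a protein of the outer membrane. Slc25a32 and Slc25a46 lost their calls without propranolol replicate 2, at -0.55 and -0.46. After removal of the GC trend the 3 genes stood at -0.16, 0.04 and 0.08. The ADP/ATP carriers Slc25a5 and Slc25a4 had log2 fold changes of 0.41 and 0.07 and were not called. The phosphate carrier Slc25a3 measured 359, 378, 542 and 503 CPM, a log2 fold change of 0.50 ± 0.09 that missed 1.5-fold. With a GC content of 43.6%, it passed 1.5-fold after removal of the trend and was then called (edgeR adjusted p = 0.000316), as was the acylcarnitine carrier Slc25a20 at 0.59. Removal of the trend also added Slc8a1, a sodium-calcium exchanger, at 0.75, Slc16a7, a monocarboxylate carrier, at 0.65, Slc39a8, a zinc and manganese importer, at 0.81, Slc30a6 at 0.74 and the anion exchanger Slc4a3 at -1.33; of these, Slc8a1, Slc16a7 and Slc39a8 were below 0 without it, at -0.10, -0.51 and -0.12. Slc4a3 was at a low level of 4.18, 2.63, 1.54 and 1.83 CPM. Its log2 fold change without GC correction was -1.01, not called, and moved to -0.60 (edgeR adjusted p = 0.424) without control replicate 1, the library that stood apart in fibroblast or tumor cell markers; the part of those cells was not tested.

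Carriers of fuels and lipids moved in both directions without GC correction, and no call of the hexose and fatty acid classes held with it. Of 7 hexose and polyol carriers 3 rose and 1 fell. Slc45a4, of a family related to sucrose transporters, measured 77.2, 75.9, 122 and 136 CPM with a log2 fold change of 0.75 ± 0.10 (edgeR adjusted p = 0.000469), and the intracellular glucose carrier Slc2a8 measured 24.3, 24.2, 38.0 and 39.6 CPM with 0.68 ± 0.12 (edgeR adjusted p = 0.00185). Slc2a6, a glucose carrier of intracellular vesicles, had 0.63, and Slc5a3, which takes up myo-inositol with sodium, fell to -0.86 (7.75, 7.21, 3.93 and 4.32 CPM). With the GC trend removed, Slc45a4 stood at 0.55, Slc2a8 at 0.37, Slc2a6 at 0.30 and Slc5a3 at -0.17, and the class median was 0.37 in place of 0.55. Slc2a6 and Slc5a3 also lost their call without control replicate 1 (0.57 and -0.76) or without propranolol replicate 1 (0.51 and -0.79). Among 6 genes for fatty acids, choline and acetyl-CoA, the fatty acid transport proteins Slc27a1 and Slc27a4 rose. Slc27a1 measured 111, 142, 209 and 259 CPM (log2 fold change 0.88 ± 0.14, edgeR adjusted p = 0.000955), and Slc27a4 measured 40.0, 38.3, 69.2 and 72.9 CPM (0.86 ± 0.11, edgeR adjusted p = 0.000332). Slc33a1, which carries acetyl-CoA into the endoplasmic reticulum, fell with 18.7, 15.9, 9.08 and 8.25 CPM and a log2 fold change of -0.99 ± 0.18 (edgeR adjusted p = 0.00192), and its exons share 32.0% of their bases with other genes. With the trend removed, Slc27a1, Slc27a4 and Slc33a1 stood at 0.55, 0.53 and -0.58, and the class median was 0.31 in place of -0.09. Without GC correction no monocarboxylate carrier changed among 4 by edgeR, DESeq2 or limma-voom at both thresholds, the lactate and pyruvate carriers Slc16a1 and Slc16a7 having log2 fold changes of -0.47 and -0.51 with adjusted p under 0.05. With the correction Slc16a1 stood at 0.09, and Slc16a7 was called higher, at 0.65 (edgeR adjusted p = 0.00930). In the sugar phosphate class 3 of 4 genes, among them Slc37a2, passed the adjusted p upwards but not the fold, with a class median of 0.46.

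**Figure D5:**
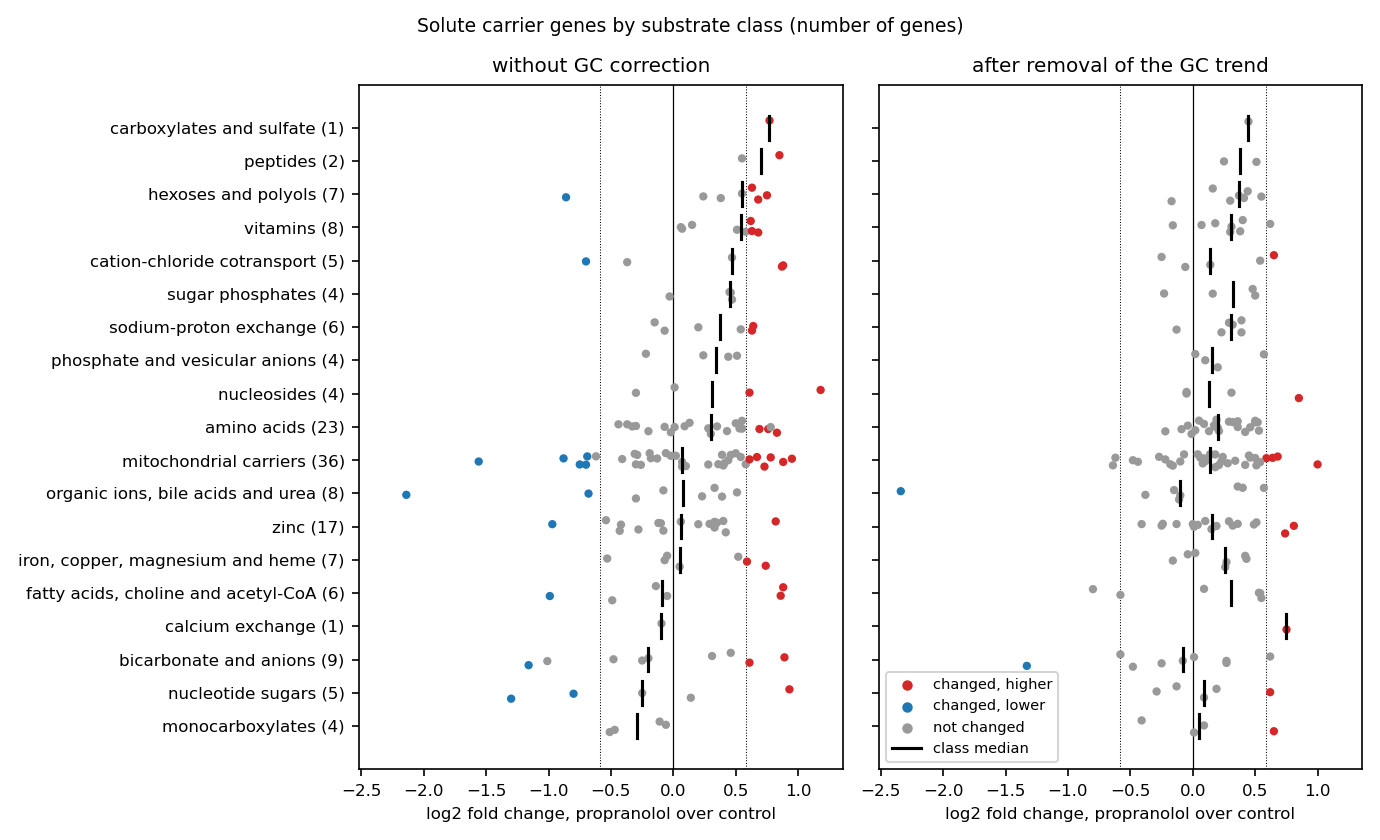
Log2 fold change of propranolol over control for each solute carrier gene by substrate class (number of genes in parentheses), without GC correction on the left and after removal of the GC trend on the right; red and blue points changed, grey points did not, black bars are class medians and dotted lines mark 1.5-fold. On the left 31 points are red and 14 blue, and on the right 11 are red and 2 blue.

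Without GC correction, ion carriers rose and fell within the classes of cation-chloride cotransport, of bicarbonate and anions, and of zinc. Among sodium-proton exchangers and carriers of iron, copper, magnesium and heme, none was called lower in the main edgeR fit. There the magnesium carrier family member Slc41a2 stood at -0.53 (edgeR adjusted p = 0.00906), short of 1.5-fold. With upper-quartile scaling Slc41a2 was called lower. In cation-chloride cotransport, the potassium-chloride cotransporters Slc12a4 and Slc12a7, which let potassium and chloride leave the cell, rose. Slc12a7 (chr13:73733094-73816754) measured 151, 177, 280 and 321 CPM, a log2 fold change of 0.87 ± 0.12 (SE, n = 2 against 2, edgeR adjusted p = 0.000378), and remained called after removal of the GC trend at 0.65 (edgeR adjusted p = 0.00298). Slc12a4 measured 75.5, 79.5, 142 and 144 CPM with 0.88 ± 0.10 (edgeR adjusted p = 0.000191), and 0.54 after removal of the trend. Slc12a2, which brings sodium, potassium and chloride into the cell, measured 11.3, 11.6, 6.49 and 7.79 CPM and fell by 0.70 ± 0.20 on the log2 scale (edgeR adjusted p = 0.0205), a call lost without propranolol replicate 1 (adjusted p = 0.0986) and after removal of the GC trend (-0.25, edgeR adjusted p = 0.412), so that no gene of this class was then called lower.

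Among 9 carriers of bicarbonate and other anions, the sodium-bicarbonate cotransporter Slc4a7 (chr14:14702279-14799940) measured 82.2 and 79.8 CPM in control and 37.1 and 35.0 CPM in propranolol libraries. It fell by 1.16 ± 0.11 on the log2 scale (edgeR adjusted p = 0.000103), and stood at -0.48 after removal of the GC trend, below the limit on fold. Slc4a11 rose at 0.89, from a low level of 5.46 and 6.70 CPM to 11.7 and 10.9 CPM, and the chloride-bicarbonate exchanger Slc4a2 at 0.61; after removal of the trend they stood at 0.62 and 0.27, neither called. Of 6 sodium-proton exchangers 2 rose, and neither call held with upper-quartile scaling or after removal of the GC trend. Slc9a8, an exchanger of the Golgi apparatus, rose by 0.64 on the log2 scale and lost its call without control replicate 1 (0.57) or propranolol replicate 2 (0.50), and stood at 0.39 after removal of the trend.

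Zinc carriers fall into importers of the Slc39 family, which bring zinc into the cytosol, and exporters of the Slc30 family, which remove it into vesicles or out of the cell. Of 11 importers, 8 had a log2 fold change above 0 and 5 passed the adjusted p upwards, but only Slc39a3 was called, with 35.4, 34.9, 60.5 and 63.6 CPM and 0.82 ± 0.11 (edgeR adjusted p = 0.000451). Of 6 exporters, 5 were below 0 (3 after removal of the GC trend) and 4 passed the adjusted p downwards, but only Slc30a4 was called, with 33.8, 27.7, 18.7 and 12.2 CPM and -0.97 ± 0.20 (edgeR adjusted p = 0.00370). The summed level of the exporters was 123 and 120 TPM in control and 80.9 and 77.6 TPM in propranolol libraries. That of the importers was 421, 421, 449 and 460 TPM. In CPM, the scale of the fold changes, exporters summed to 271, 262, 204 and 197 and importers to 501, 497, 627 and 630. After removal of the GC trend the medians of importers and exporters were 0.19 and 0.05, in place of 0.29 and -0.43. Over all tested genes the median was 0.09, in place of -0.02. Neither Slc39a3 nor Slc30a4 was then called, whereas the importer Slc39a8 and the exporter Slc30a6 were called higher, at 0.81 and 0.74. For iron, copper, magnesium and heme, 2 of 7 genes rose. Slc48a1, which moves heme from the lysosome to the cytosol, measured 78.0, 74.1, 116 and 113 CPM with 0.59 ± 0.10 (edgeR adjusted p = 0.00123), just past 1.5-fold and not called without control replicate 2 or propranolol replicate 1. The magnesium carrier family member Slc41a3 had 0.74. After removal of the GC trend Slc48a1 stood at 0.27 and Slc41a3 at 0.42, neither called. The copper carriers Slc31a1 and Slc31a2 had -0.05 and -0.07 without that correction and 0.43 and -0.04 with it, neither called, Slc31a1 then passing the adjusted p alone (edgeR adjusted p = 0.0179).

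Among nucleoside and nucleotide sugar carriers Slc29a2 rose and Slc35a3 fell by over 2-fold, and neither passed 2-fold after removal of the GC trend. Slc29a2, an equilibrative nucleoside transporter, measured 3.44, 4.58, 8.88 and 9.56 CPM and rose by 1.18 ± 0.25 on the log2 scale (edgeR adjusted p = 0.00414), with 0.85 after removal of the GC trend (edgeR adjusted p = 0.0314). Its relative Slc29a1 rose by 0.61, a call lost without propranolol replicate 2 (0.56) and after removal of the trend (0.31), and the lysosomal Slc29a3 had a log2 fold change of 0.01. Slc35a3, which supplies UDP-N-acetylglucosamine to the Golgi apparatus (chr3:116669470-116712831), measured 54.8, 49.7, 23.4 and 18.7 CPM and fell by 1.30 ± 0.14 on the log2 scale (edgeR adjusted p = 0.000177), with -0.29 and no call after removal of the trend. Slc35a5 fell with -0.80, which turned to 0.09. Slc35a4 measured 81.5, 88.3, 165 and 159 CPM and rose by 0.93 ± 0.10 (edgeR adjusted p = 0.000167), with 0.62 and its call kept. The GC contents of Slc35a3, Slc35a5 and Slc35a4 were 38.8%, 39.8% and 55.9%.

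All 8 vitamin carriers had a log2 fold change above 0 (7 of 8 after removal of the GC trend). Their median was 0.54, beside -0.02 over all tested genes. The median GC content of the class was 54.1%. All tested genes in the groups by GC content with medians of 53.9% and 54.8% had median log2 fold changes of 0.35 and 0.40. In the class 3 were called, the riboflavin carrier Slc52a2 at 0.62, the folate carrier Slc46a1 at 0.63 and the multivitamin carrier Slc5a6 at 0.68. After removal of the GC trend none of the 3 was called and the class median was 0.30, and with upper-quartile scaling 1 was called. Slc46a1 lost its call without propranolol replicate 1, and Slc5a6 without that library or without control replicate 1. The dicarboxylate carrier Slc13a3 measured 52.7, 52.2, 83.4 and 95.4 CPM with 0.77 ± 0.11 (edgeR adjusted p = 0.000608), and 0.44 after removal of the trend. No carrier of phosphate and vesicular anions passed both thresholds among 4 by edgeR, Slc20a1 passing the adjusted p alone with 0.44, and the lone calcium exchanger is Slc8a1, given above. Of the 4 genes that are not carriers none was called by edgeR, Slc9a3r1 and Slc4a1ap passing the adjusted p alone, with log2 fold changes of 0.44 for Slc9a3r1, -0.48 for Slc4a1ap, -0.59 for Slc9a3r2 and near 0 for Slc7a6os, which stood at 0.32 after removal of the GC trend (edgeR adjusted p = 0.0863).

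In the class of organic ions, bile acids and urea, 2 of 8 genes fell. The urea transporter Slc14a1 measured 9.71 and 8.69 CPM in control and 6.24 and 5.11 CPM in propranolol libraries, with both propranolol libraries below both controls. Its log2 fold change of -0.68 ± 0.23 (SE, n = 2 against 2, edgeR adjusted p = 0.0360) lost its call without control replicate 1 (adjusted p = 0.153) or propranolol replicate 2 (adjusted p = 0.166), by DESeq2 (adjusted p = 0.0605), and after removal of the GC trend (-0.38, edgeR adjusted p = 0.237).

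Promoters were read for the carriers that RefSeq lists, 118 of the 161 genes and 32 of the 45 changed ones, as the 250 bases before each start site. The letters TGACGTCA, the response element of factors driven by cyclic AMP, the messenger that beta-adrenergic receptors raise, read the same on both strands and lay in 3 of 158 promoters of solute carrier genes (1.90%), beside 1.55% of all 32851 promoters. Among changed genes they lay in promoters of Slc25a25, which rose, and Slc25a36, which fell. The letters CACGTG, also the same on both strands and the core recognised by the MiT/TFE and MYC factors, lay in 22 of 158 promoters (13.9%), beside 6.02% of all. They were found in 6 of 41 promoters of risen genes and 3 of 9 of fallen genes. As a measure of base composition, GGGCGG on either strand lay in 65.2% of the 158 promoters and 32.7% of all. A match is a run of letters in this window and not a shown site. 4 promoters of changed genes are printed because they hold the first or second of these runs, in capitals, in a gene that rose (Slc25a25, Slc12a7, Slc36a1) or fell (Slc25a36); the genes were picked after their values were known, and the sequences are from RefSeq on GRCm38.p6, 5′ to 3′ along the gene.
Slc25a25, chr2:32424067-32424316, minus strand: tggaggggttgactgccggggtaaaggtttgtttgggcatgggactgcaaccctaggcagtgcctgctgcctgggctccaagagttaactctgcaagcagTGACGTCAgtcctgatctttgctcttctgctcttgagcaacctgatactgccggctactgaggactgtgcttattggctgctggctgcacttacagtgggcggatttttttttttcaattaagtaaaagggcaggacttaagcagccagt
Slc12a7, chr13:73763447-73763696, plus strand: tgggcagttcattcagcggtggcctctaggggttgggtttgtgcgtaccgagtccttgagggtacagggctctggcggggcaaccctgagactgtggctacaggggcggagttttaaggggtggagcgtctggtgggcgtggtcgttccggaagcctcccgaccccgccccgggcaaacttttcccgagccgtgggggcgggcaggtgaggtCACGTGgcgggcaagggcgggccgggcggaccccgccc
Slc36a1, chr11:55204090-55204339, plus strand: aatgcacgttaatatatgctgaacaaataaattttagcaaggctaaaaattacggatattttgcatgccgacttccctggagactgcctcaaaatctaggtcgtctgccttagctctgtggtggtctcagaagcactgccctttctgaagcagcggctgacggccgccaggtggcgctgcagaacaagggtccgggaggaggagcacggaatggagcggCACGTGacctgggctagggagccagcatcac
Slc25a36, chr9:97111158-97111291, minus strand: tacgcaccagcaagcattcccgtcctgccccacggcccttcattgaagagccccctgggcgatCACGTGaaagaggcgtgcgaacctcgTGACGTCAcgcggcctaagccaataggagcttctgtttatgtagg
TGACGTCA began 150 bases before the RefSeq start in Slc25a25 and 161 bases before it in Slc25a36, where CACGTG began 187 bases before the start, and only the 134 bases upstream of the annotated exon are printed for that gene. CACGTG began 38 bases before the start in Slc12a7 and 31 bases before it in Slc36a1. Slc25a25 measured 35.4 and 40.2 CPM in control and 55.7 and 59.9 CPM in propranolol libraries, a log2 fold change of 0.61 ± 0.12 (edgeR adjusted p = 0.00292), and Slc25a36 measured 57.1, 59.0, 35.0 and 34.1 CPM, a log2 fold change of -0.75 ± 0.11 (edgeR adjusted p = 0.000712). With the GC trend removed they stood at 0.68, called, and 0.04, not called, and the call of Slc25a25 was lost with upper-quartile scaling and without control replicate 1. Slc25a25 has 3 listed start sites and Slc12a7 has 2, and the counts do not say which was used.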

How the data were processed

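Per the labels, poly(A) libraries were prepared with the NEBNext kit, and the submitters' processing notes name STAR 2.7.1a, SAMtools 1.9, featureCounts 1.6.4 and mm10. The authors deposited raw read counts per Ensembl gene for 4 libraries, without normalization; the study's methods name GENCODE annotation and counting of read pairs over exons, with no strand option listed, and the annotation release was not given in the sources used here. Of 54146 genes, 54079 matched GENCODE M21 (GRCm38), from which symbols, lengths and GC content were taken. Counts were filtered with filterByExpr (minimum count 10), scaled by TMM and tested with edgeR 4.0.16 (quasi-likelihood, no covariate, Benjamini-Hochberg adjustment over 14688 genes). CPM uses TMM-scaled library sizes, and TPM the union of exons without TMM scaling, so that differences between groups can vary in size between the 2 measures. In the GC-corrected fit, a natural spline of gene GC content (5 degrees of freedom) was fitted to how far each gene of a library lay from its mean, and was entered as offsets. DESeq2 1.42.0, limma 3.58.1, other scalings, filters and thresholds, and fits leaving out each library were tried. On simulated data the test made few false calls without a GC trend, but very many when such a trend was put in. False calls were few again once GC correction was applied. There the trend was added by design and every call it caused was counted as false. The origin of the trend in the real libraries was not tested by this. The labels do not say whether a library came from 1 mouse or several, so that p-values measure the spread between these libraries. Named genes were the up to 2 most raised and 2 most lowered changed genes of each class, the 15 most abundant, a preset list of immune and metabolic carriers, 3 genes on each side of the count limit, and the 5 most abundant genes that lost or gained a call with GC correction; others named were chosen after their values were seen. The solute carrier genes and all gene lists were chosen with earlier results of these data known. Some genes are not reported here.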

Additional observations from a re-analysis of the deposited data

How the results depend on the processing

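With DESeq2 size factors, upper-quartile factors, the DESeq2 test, limma-voom, no filter on low counts, a minimum of 1 CPM or the replicate block, 38 to 55 solute carrier genes changed, with 3778 to 4466 changed of all tested genes. Leaving out 1 library in turn gave 44 to 56 changed, 33 to 41 higher and 10 to 15 lower, with 3615 to 4329 changed of all tested genes; 29 of the 45 genes were called in all 4 of these fits. A test against a 1.5-fold change called 7 genes, 4 higher and 3 lower (1093 of all genes). Adjusted p alone called 90, 64 higher and 26 lower (6204 of all), and a log2 fold change above 1.5 called 2, 0 higher and 2 lower (728 of all). GC correction called 13, 11 higher and 2 lower (1855 of all), GC and length correction 13, 10 higher and 3 lower (1849 of all), and the replicate block with GC correction 14, 11 higher and 3 lower (2128 of all). In those 3 fits, in that order, and among the genes of the naming rule called with or without GC correction, the sign turned for Slc16a7 (0.65, 0.67 and 0.65, from -0.51), Slc35a5 (0.09, 0.08 and 0.08, from -0.80), Slc39a8 (0.81, 0.80 and 0.81, from -0.12) and Slc8a1 (0.75, 0.83 and 0.75, from -0.10). GC correction turned the sign of 38 of the 161 genes in all, of which 3 were called without it (Slc35a5, Slc25a36 at 0.04, from -0.75, and Slc25a46 at 0.08, from -0.69) and 3 with it. The cause was not tested, and the share turned over all tested genes is not given. Backgrounds by direction are given above for the main fit, adjusted p alone and GC correction. The other settings have none here, so their counts by direction cannot be set against one. The number of genes tested also changed with the filter.

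Libraries of the 2 groups shared replicate numbers in the labels, without a stated pairing. Deviations of same-numbered libraries from their group means correlated at 0.169 over 14688 genes, with 2 pairs only, and the replicate block called 46 genes, 32 higher and 14 lower, in place of 45. A count minimum of 100 in the rule gave 175 genes, with 31 higher and 17 lower, and a minimum of 500 gave 144, with 31 higher and 12 lower. Over all tested genes 12.2% were higher and 15.6% lower. With the length of the longest transcript, 13 of the 15 most abundant genes by TPM were the same. A low TPM is not always a low depth, since among the 23 genes under 5 TPM Slc38a9 had 2242 counts over long exons. Having 2 libraries a group limits every p-value.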
